A study of Mus musculus with 15 samples.

Results

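Dense clusters of SAM68 binding sites were examined in 3 lists of sites, mapped with iCLIP2 in the E14 line of mouse embryonic stem cells or in embryoid bodies made from it. A cluster was defined as 3 or more sites of the same gene and strand joined by gaps of 50 nt or less. By this rule 1183 of 132293 sites (0.894%) fell into 378 clusters in 312 genes, of which 361 held 3 sites, 15 held 4 sites, 1 held 5 sites and 1 held 35 sites. The cells were undifferentiated stem cells at day 0, grown feeder-free with LIF and inhibitors of GSK3 and MEK, and embryoid bodies, aggregates that differentiate in medium with 10% serum, at day 3, from hanging drops, and at day 10, plated directly into spheroid microplates. Embryoid bodies were dissociated before irradiation, and culture format and day cannot be told apart here. No genetic alteration is given for any of them, and all come from 1 cell line. Each day had 5 libraries, 15 in all, but only 1 list stands for each day. Replicate spread could therefore not be measured, and the days were compared without a test. Shares have exact (Clopper-Pearson) 95% binomial intervals for counting error alone. Sites of a cluster share their gene and are not independent. The day 0 list had 29740 sites, the day 3 list 28266 and the day 10 list 74287. Depth is unknown because the lists carry no crosslink counts, and in embryoid bodies fewer cells of a type and less RNA per cell cannot be told apart. From day 0 through day 3 to day 10, 8 stem cell markers had 191, 9 and 9 sites, 3 primed-state markers 0, 45 and 0, and 7 cardiac markers 1, 14 and 803. Among other marker lists, the endoderm list held 0, 8 and 214 sites with Sox17 at 0 on each day, and the neural list 7, 0 and 214 with Pax6 at 0.

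SAM68, encoded by Khdrbs1, is a nuclear RNA-binding protein of the STAR family that acts in splicing and other steps of RNA processing. Its KH domain recognises short A- and U-rich motifs such as UAAA and UUAA, and the protein binds RNA as a dimer. In iCLIP2 the protein is fixed to its RNA by ultraviolet light, reverse transcription stops next to the crosslinked base, and binding sites are called where such stops pile up. Each called site here was 5 nt wide. Several sites within a short stretch can stand for a wide stretch of crosslinking that was divided into neighbouring sites, or for separate contacts, and the lists do not tell these apart.

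Sequence was at hand for the clusters that lie wholly inside a RefSeq promoter window, from 250 bases before to 50 after an annotated start (build GRCm38.p6). These were 7 of the 378 clusters, and the 5 of at most 30 nt are shown because they give the actual bases under neighbouring sites. Capitals mark the bases of the called sites, lower case the gaps between them, and all are written 5′ to 3′ on the strand of the sites.
Rps12, day 0, chr10:23787176-23787204, minus strand: CGGCCTTTTCccctgccgccgccgACTTG
Rpl38, day 10, chr11:114668576-114668596, plus strand: CGTTCtttcccCGTTCTCTTC
Fau, day 10, chr19:6057947-6057961, plus strand: CTTCCTCTTTCTTGA
ENSMUSG00000009927.9, day 10, chr9:44407691-44407705, plus strand: GCTTCCTTTTTTTCC
Sympk, day 10, chr7:19054545-19054559, plus strand: GGGGCGGGACGGGGC
Counted from 1 at the RefSeq start base, the Rps12 cluster ran from position 6 to 34, the Rpl38 cluster from -4 to 17 and the Fau cluster from 1 to 15. The cluster of the unnamed ID ENSMUSG00000009927.9 lay in the promoter window of Rps25, from -23 to -9. The Sympk cluster lay in the window of the neighbouring gene Rsph6a, from -142 to -128, but for Sympk itself this is the 3′ end, with the centre of the cluster 71 nt from the end of its RefSeq span. Rps12, Rps25 and Rpl38 encode ribosomal proteins, Fau encodes a ribosomal protein fused to a ubiquitin-like peptide, and Sympk encodes symplekin, a scaffold of the cleavage and polyadenylation machinery. Of the 15 site bases of each cluster, pyrimidines made up 11 in Rps12, 13 in Rpl38, 13 in Fau and 14 in the Rps25 window, against 3 in Sympk, whose bases were mostly G. Over all 32851 promoter windows, stretches of the same length at the same place held 47.4% to 50.1% pyrimidines for these 5 clusters. That background was not matched to ribosomal protein genes, to which most of the 5 belong. Neither TAAA nor TTAA, searched on the strand of the sites only, occurred within the 5 sequences. At the same places TAAA was in 2.87% to 6.08% of all promoter windows and TTAA in 2.44% to 5.23%. With shares this low, absence from 5 sequences gives no contrast. The 5 sequences do not stand for the clusters outside promoter windows.

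The number of clusters differed between days by far more than the length of the lists. Day 0 had 54 clusters with 163 sites, day 3 had 23 clusters with 71 sites and day 10 had 301 clusters with 949 sites. Relative to day 0, day 10 had 2.5 times the sites and 5.57 times the clusters, and relative to day 3 it had 2.63 times the sites and 13.1 times the clusters. Clusters took up 0.548% of sites on day 0 (0.467% to 0.639%), 0.251% on day 3 (0.196% to 0.317%) and 1.28% on day 10 (1.20% to 1.36%). Pairs of sites held a further 8.39%, 6.76% and 12.3% of the 3 lists, and single sites 91.1%, 93.0% and 86.4%.

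Most clusters were short, tight groups of 3 sites. Their median span was 32 nt on day 0, 25 nt on day 3 and 33 nt on day 10, below the 50 to 200 nt of the RNA fragments in the protocol. The shortest possible span, 15 nt of abutting sites, was reached by 1, 1 and 12 clusters. Spans of at most 20 nt made up 11 of 54 clusters on day 0, 10 of 23 on day 3 and 64 of 301 on day 10. Of the gaps inside clusters, 46.8%, 66.7% and 44.9% were 4 nt or less. The longest spans were 121 nt in Jam2 on day 0, 85 nt in Zfp292 on day 3 and 474 nt in Malat1 on day 10. Close to the limit of the rule, 12, 2 and 38 clusters contained a gap of over 40 nt, and a limit of 60 nt would have added 13, 6 and 80 clusters.

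A longer list places more sites side by side, so the share of clustered sites was also read among genes with like numbers of sites. In genes with 3 to 4 sites, 0.621% of sites were clustered on day 0 (0.368% to 0.979%), 0.747% on day 3 (0.469% to 1.13%) and 1.61% on day 10 (1.22% to 2.10%). In genes with 50 or more sites, the shares were 0.792% (0.539% to 1.12%), 0.0962% (0.0198% to 0.281%) and 1.36% (1.23% to 1.5%). At each of the 5 steps the day 10 share lay above those of the other days with intervals that did not overlap. These intervals take sites as independent, which sites of a cluster are not, so they are too narrow. Counted as genes with a cluster, day 10 was also highest at each step, but no intervals were computed. With 3 to 4 sites these were 18 of 988 genes, against 6 of 857 on day 0 and 7 of 864 on day 3. With 50 or more sites they were 93 of 302, against 9 of 46 and 1 of 41. Day 3 lay below day 0 without overlap of intervals among genes with 10 to 19 sites, at 3 of 6278 sites, and with 50 or more, at 3 of 3119. Within day 10 the share stayed between 1.19% and 1.61% across the 5 steps. Depth and calling of the lists move with the day, and their part in the difference was not tested.

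**Figure D1:**
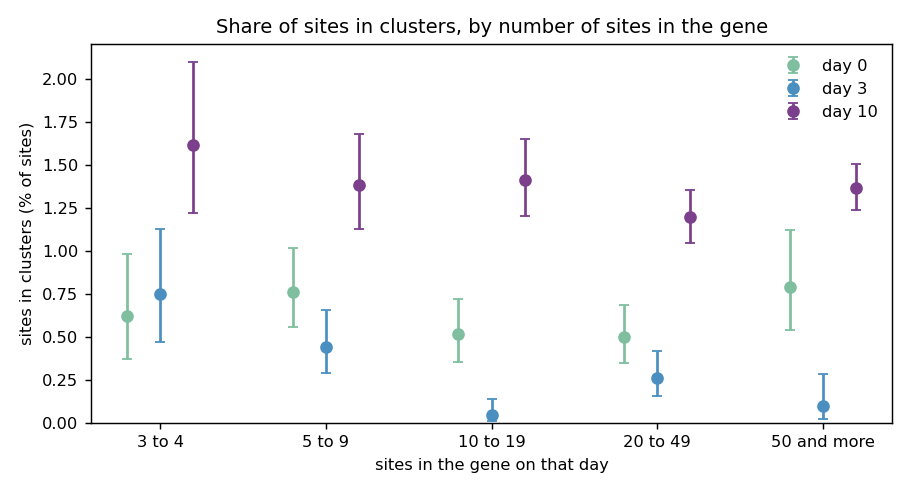
Share of sites that lie in clusters (vertical axis, percent of sites) for genes grouped by their number of sites on that day (horizontal axis), with exact 95% binomial intervals. Day 10 lies between 1.19% and 1.61% in all 5 groups, above day 0 and day 3.

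Clusters were held by few genes, and most of these had 1 cluster. Of the genes with a site, 52 of 5056 held a cluster on day 0 (1.03%), 23 of 5034 on day 3 (0.457%) and 261 of 6345 on day 10 (4.11%). On day 10, 25 genes held 2 clusters and 6 held 3 or 4, while on day 0 the genes with 2 clusters were Qk and Taf15. Qk, a STAR protein like SAM68 itself, had 6 clustered sites among 81 on day 0 and 3 among 125 on day 10. Taf15, an RNA-binding protein of the FET family, had 6 among 37 on day 0 and none among 51 on day 10. Many sites alone did not make a cluster. Among genes with at least 20 sites, 272 of 292 on day 0, 267 of 274 on day 3 and 782 of 944 on day 10 had none. Etl4 had 140 sites on day 0 and 180 on day 3 without a cluster, Cobl, an actin nucleator, 140 on day 0, Rbpms, an RNA-binding protein, 149 on day 3, and Rbms3, another RNA-binding protein, 310 on day 10.

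The genes with clusters ranged from compact ones such as Tmsb10, of 1.40 kb, to long ones such as Gpc6, of 1055 kb. Their median length was 48.8 kb on day 0, 79.6 kb on day 3 and 64.1 kb on day 10, against 53.7, 57.0 and 52.2 kb for genes with 3 or more sites and no cluster. They were denser in sites by the rule itself, with medians of 0.497, 0.334 and 0.590 sites per kb against 0.139, 0.130 and 0.187. Genes under 10 kb made up 20.4%, 35% and 17.0% of the genes with clusters, against 6.26%, 7.35% and 6.95% of the genes without. In these short genes 2.31% of sites were clustered on day 0 (1.56% to 3.28%), 1.59% on day 3 (0.997% to 2.39%) and 7.55% on day 10 (6.51% to 8.70%). Malat1, of 6.98 kb, supplied 38 of their 175 clustered sites on day 10 and 65 of their 2318 sites. The share without it was not computed. In genes over 100 kb the shares were 0.340% (0.238% to 0.470%), 0.186% (0.115% to 0.283%) and 0.931% (0.834% to 1.04%).

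**Figure D2:**
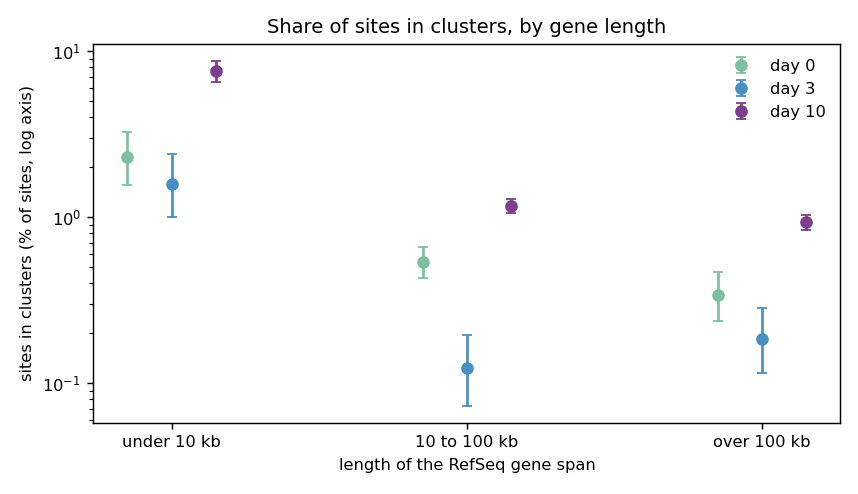
Share of sites that lie in clusters (vertical log axis, percent of sites) for genes of 3 length classes (horizontal axis), with exact 95% binomial intervals. Genes under 10 kb lie highest on each day, with 7.55% on day 10, Malat1 included.

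Among the short genes, those for ribosomal proteins held many of the clusters. This group was formed by gene symbol after the clusters had been seen, so its counts are a description. Its 78 genes with a site had a median length of 3.18 kb. Of their sites, 15 of 278 were clustered on day 0 (5.40%), 12 of 364 on day 3 (3.30%) and 55 of 423 on day 10 (13.0%), against 0.544%, 0.224% and 1.26% of the sites of all named genes. From day 0 to day 10, Rps3, of the small subunit, had 10, 9 and 7 sites, with a cluster of 3 on day 0 and day 3. Rpl17, of the large subunit, held 14, 9 and 13 sites, with 1, 0 and 2 clusters. Rps23 held 5, 4 and 7 sites, and 4 of those on day 10 stood in 1 cluster. The number of their genes with a cluster was 5 of 67, 4 of 75 and 17 of 76. Other short, abundantly transcribed genes with clusters were Tmsb10, an actin-sequestering thymosin with 4, 4 and 9 sites and 1, 0 and 2 clusters, and Tpt1, a translationally controlled protein with 5, 4 and 15 sites and 0, 0 and 2 clusters.

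Outside Malat1 and an unnamed ID, the genes with most clustered sites on day 10 were of varied length and function. Gpc6, a glypican of the cell surface and 1055 kb long, held 20, 39 and 919 sites, and 4 clusters of 3 on day 10. Grip1, a scaffold of PDZ domains, held 0, 90 and 455 sites and also had 4 clusters on day 10. All 4 Gpc6 clusters had no day 0 or day 3 site in their span. Among all 301 day 10 clusters, 178 had no day 0 site and 168 no day 3 site in theirs, so 4 clusters give no contrast. Of the clusters of Grip1, 2 contained a day 3 site. In both genes clustered sites were a small part, 1.31% and 2.64% of the day 10 sites. Nr6a1, an orphan nuclear receptor, held 5, 42 and 95 sites with 3 clusters on day 10, and Rnf217, a ubiquitin ligase, held 0, 1 and 46 with 3. Ddx6, an RNA helicase of P-bodies, had 9 of 29 sites in 3 clusters on day 10, against none of 17 and 10 sites on day 0 and day 3. Csnk1a1, casein kinase 1 alpha, had the longest run outside Malat1, 5 sites over 173 nt.

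Read by gene groups, clusters were rare on day 0 and day 3 and spread over most groups on day 10, when 4.19% of all named genes with a site held one. Of 20 guidance and adhesion genes with a site on day 10, 6 held a cluster, among them Unc5c, a netrin receptor, with 291 sites and 2 clusters, Robo2, a receptor for Slit ligands, with 149 and 1, and Pcdh7, a protocadherin, with 267 and 1. Of 24 matrix and proteoglycan genes 4 held a cluster: Gpc6, Gpc3, the growth factor Ptn and the laminin chain Lamb1. Of 21 cardiac and mesodermal transcription factors 4 held one, including Tead1, an effector of the Hippo pathway with 69, 21 and 190 sites and 2 clusters on day 10, and Meis2, a homeodomain factor, with 36, 1 and 186 sites and 1 cluster. In the signalling list 4 of 22 held one, with Tcf7l2, a nuclear effector of Wnt, Lrp6, a Wnt co-receptor, and Smad1, a BMP effector, beside Tead1. These groups hold many long genes with many sites, and their clustered shares of 1.42%, 0.913%, 1.22% and 1.33% of day 10 sites stood near the 1.26% of all named genes.

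The lists of calcium handling, sarcomere, pluripotency and known SAM68 target genes held 0 to 2 clusters each on day 10. Slc8a1, the sodium-calcium exchanger, had 439 sites on day 10 and 1 cluster, the only cluster among 11 genes of calcium handling and ion channels with a site. In the sarcomere list the non-muscle myosin Myh9 and the tropomyosin Tpm4 had 1 each, out of 17 genes, with 1.68% of the list's sites (0.617% to 3.61%). Of 10 pluripotency genes with a site on day 10 none had a cluster. On day 0 the sole member of that list with a cluster was Jam2, a junctional adhesion molecule, with 82, 0 and 0 sites and 1 cluster of 4 sites at chr16:84795122-84795242. Nfib, a transcription factor with 34, 3 and 90 sites, had its cluster on day 0. Of the genes listed as SAM68 targets known from other work, none held a cluster on any day, among 9, 11 and 11 with a site. With 1.03%, 0.420% and 4.19% of all named genes holding one, so short a list gives no contrast with the other genes.

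Genes for splicing and RNA-binding proteins had clusters on all 3 days, in 4 of 36, 1 of 36 and 10 of 40 genes with a site, against 1.03%, 0.420% and 4.19% of all named genes. These counts were not matched for the number of sites. The 40 genes held 2054 sites on day 10, when 30.8% of all genes with 50 or more sites held a cluster. Their clustered share was 2.46% of sites on day 0 (1.38% to 4.03%), 0.430% on day 3 (0.0887% to 1.25%) and 1.66% on day 10 (1.15% to 2.31%). For all named genes it was 0.544%, 0.224% and 1.26%, inside the intervals of day 3 and day 10. On day 0 it lay below an interval that is too narrow, since sites of a cluster are not independent. Hnrnph1, an hnRNP splicing regulator, was the named gene with a cluster on each of the 3 days, with 12, 9 and 15 sites. Its day 3 and day 10 clusters overlapped at chr11:50380037-50380066, where day 0 had 2 sites, and its day 0 cluster lay elsewhere in the gene, at chr11:50383981-50384055. Srsf10, a splicing repressor of the SR family, held 10, 21 and 30 sites and 2 clusters on day 10. Luc7l2, a component linked to the U1 particle, held 49, 49 and 112 sites with 1 cluster on day 0 and 1 on day 10. Chromatin regulators had 0.524%, 0.604% and 0.787% of their sites in clusters, in 1 of 30, 1 of 33 and 3 of 36 genes, where 1.03%, 0.420% and 4.19% of all named genes held one. Their clusters were in Kat6b, a histone acetyltransferase, on day 0, in Nsd1, a histone methyltransferase, on day 3 and in Chd2 and Kmt2e among others on day 10.

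The largest cluster by far was in Malat1, an abundant nuclear long non-coding RNA of speckles. Malat1 held 11 sites on day 0, 9 on day 3 and 65 on day 10, and of these 0, 0 and 38 were clustered. On day 10, 35 sites stood in a single run at chr19:5802135-5802608 on the minus strand. The run began 66 nt from the 5′ end of the 6983 nt RefSeq span and ended 535 nt from it. The median gap inside it was 5.5 nt and the largest 40 nt, and the sites covered 36.9% of its bases. In the same stretch day 0 had 2 sites and day 3 had 1. Outside it the 3 days had 9, 8 and 30 sites, and a second cluster of 3 on day 10 lay 4928 nt from the 5′ end, where day 0 had a pair. The run alone made up 3.69% of the clustered sites of day 10.

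**Figure D3:**
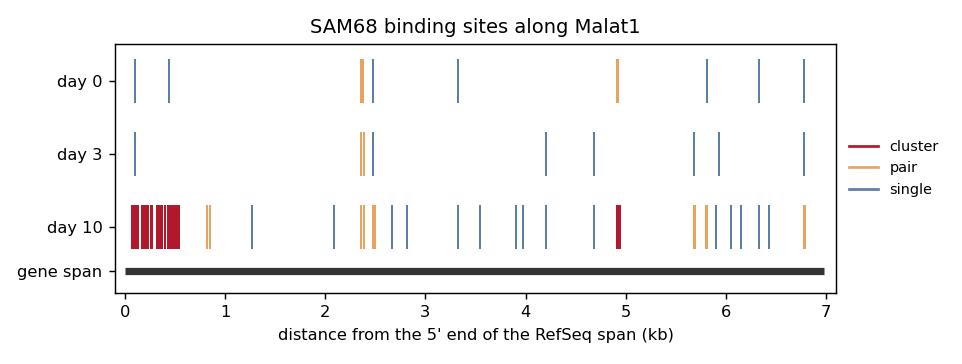
Position of each SAM68 site in Malat1 as distance from the 5′ end of the RefSeq span (horizontal axis, kb), with 1 row per day and colours for clustered, paired and single sites. The 35 sites of the day 10 run run from 66 to 535 nt, where day 0 has 2 sites and day 3 has 1.

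Long non-coding RNAs as a class had 3, 1 and 13 clusters. Of their sites 0.878% (0.402% to 1.66%), 0.524% (0.143% to 1.34%) and 3.84% (3.01% to 4.82%) were clustered, against 0.548%, 0.251% and 1.28% of all sites. On day 0 and day 3 the interval covered the share of all sites. Without Malat1 the share of long non-coding RNAs on day 10 was 1.85%. Of the non-coding RNAs in the list, 6 of 13 with a site on day 10 held a cluster, against 4.19% of all named genes. None of 11 did on day 0 and none of 15 on day 3, where 1.03% and 0.420% of all named genes held one. So few genes give no contrast on those 2 days. The day 10 count was not matched for the number of sites. The 13 genes held 654 sites, and 30.8% of all genes with 50 or more sites held a cluster that day. Meg3, an imprinted RNA, held 0, 2 and 12 sites, and 6 of the 12 stood in 2 clusters. Airn and Kcnq1ot1, imprinted antisense RNAs with 267 and 158 sites on day 10, had 1 cluster each. Pseudogenes had 1, 3 and 10 clusters, with 3 of 308, 10 of 160 and 31 of 260 sites clustered. These were 0.974%, 6.25% and 11.9%, against the 0.548%, 0.251% and 1.28% of all sites. Several of them are copies of ribosomal protein genes, such as Rps27a-ps3 on day 3 and Rps13-ps1 and Rpl31-ps8 on day 10. Reads of such copies, of their parent genes and of zinc finger and other multicopy genes may be shared between relatives. The 8, 7 and 27 clusters in pseudogenes, Zfp or Gm genes or unnamed IDs are therefore uncertain in their gene, and those of ribosomal protein genes may be.

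Along protein-coding genes, clusters of the 3 days together lay in all parts of the gene, and the distribution of their sites was uneven on the days with few of them. Each 10% of the gene length held 2.11% to 20.4% of the 142 clustered sites on day 0, 0% to 22.2% of the 54 on day 3 and 6.34% to 13.8% of the 805 on day 10. For single sites these ranges were 8.89% to 11.8%, 8.74% to 12.8% and 8.42% to 11.3%. The first 10% held 14.8% of clustered sites on day 0 (9.39% to 21.7%), against 8.89% of single sites (8.54% to 9.25%), while on day 3 and day 10 the intervals overlapped. On day 0 this was 21 of 142 sites, and it was not recounted as whole clusters. Its interval is therefore too narrow to set the 2 kinds apart. The last 10% held 13.8% of clustered sites on day 10 (11.5% to 16.4%), against 10.6% of single sites (10.4% to 10.9%). Counted as whole clusters, since sites of a cluster are not independent, this was 36 of 264 (9.74% to 18.4%), and the intervals overlapped. On day 0 the last 10% held 16.9% (11.1% to 24.1%) against 11.8%, and on day 3 it held 16.7% (7.92% to 29.3%) against 12.8%.

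The share near the 3′ end differed between genes of different length. Within 2 kb of the 3′ end of the span lay 9 of 46 clusters on day 0 (9.36% to 33.9%), 4 of 18 on day 3 (6.41% to 47.6%) and 43 of 264 on day 10 (12.0% to 21.3%), against 8.60%, 9.32% and 6.40% of single sites. The interval reached into that of single sites on day 3 and lay above it on day 0 and day 10. Gene length moves with this share, since a window of 2 kb covers much of a short gene. In genes under 10 kb the last 10% held 12.5%, 20% and 22.2% of clustered sites on day 0, day 3 and day 10, against 25.1%, 26.5% and 27.3% of single sites. In genes of 10 to 100 kb the shares were 22.0%, 0% and 18.1%, against 13.7%, 15.8% and 13.6%. In genes over 100 kb they were 8.33%, 28.6% and 6.33%, against 7.75%, 7.76% and 7.13%. A larger share of clustered sites at the 3′ end was therefore not seen in every length class or on every day.

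**Figure D4:**
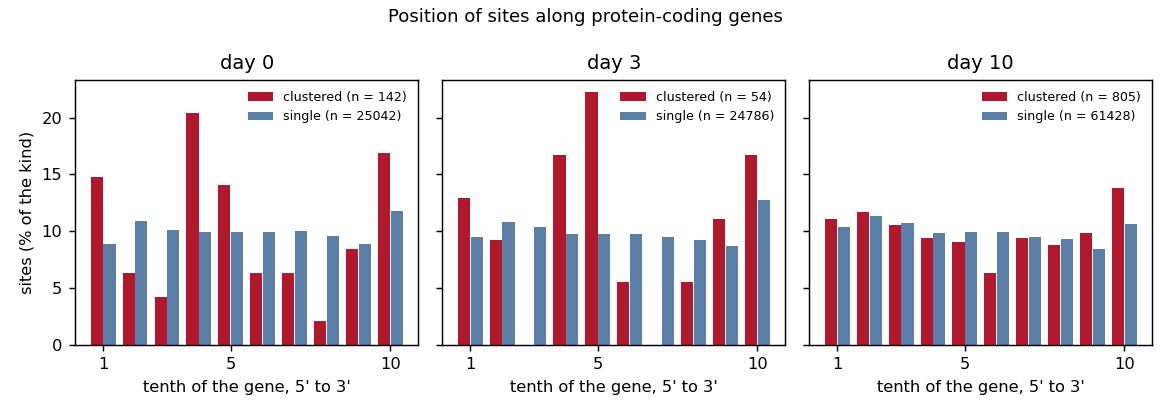
Distribution of clustered and single sites over 10 equal parts of protein-coding genes from the 5′ to the 3′ end (horizontal axis), in percent of the sites of each kind (vertical axis), for the 3 days. On day 10 the widest gaps are 6.34% of clustered against 9.90% of single sites in the part from 50% to 60% of the length and 13.8% against 10.6% in the last 10%, while day 0 and day 3 rest on 142 and 54 clustered sites and are uneven.

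Some clusters lay at the very start of a gene. Of clusters in genes with a RefSeq start, 3 of 40 on day 0, 1 of 14 on day 3 and 4 of 220 on day 10 came within 100 nt of it. This was 7.50% (1.57% to 20.4%), 7.14% (0.181% to 33.9%) and 1.82% (0.498% to 4.59%), against 0.247%, 0.319% and 0.155% of single sites. The 2 measures are unlike, since a cluster was counted if any of its sites lay so near. The clusters counted all lay in genes under 10 kb, and the single sites in genes of any length. The clusters were those of Rps3 on day 0 and day 3, Rpl23 and Rps12 on day 0, and Rpl38, Fau, Tmsb10 and Malat1 on day 10. Clusters without a matched RefSeq start were left out, among them those of Rpl32 and Hsp90ab1 on day 0. Their sites lay on average 13.7 and 3.67 nt from the 5′ end of the span. The bases of Rps12, Rpl38 and Fau are among the sequences given above. In genes under 10 kb, 12 of 24 clustered sites lay in the first 10% of the gene on day 0, 4 of 15 on day 3 and 12 of 108 on day 10, against 56 of 906, 58 of 986 and 63 of 1431 single sites.

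Sites in clusters were found again on another day in larger shares than single sites, with intervals that did not overlap in any of the 6 ordered pairs of days. These intervals take sites as independent, which sites of a cluster are not, so they are too narrow. The other lists took no part in choosing the clusters. Of the 163 clustered sites of day 0, 51 shared at least 1 nt with a day 3 site (31.3%, 24.3% to 39.0%), against 16.4% of single sites (16.0% to 16.9%) and 17.4% of all sites. With day 10 sites the shares were 46.0% (38.2% to 54.0%) against 23.0% (22.5% to 23.5%), and 24.1% of all sites. Of the 71 clustered sites of day 3, 46.5% were also on day 0 (34.5% to 58.7%) and 53.5% on day 10 (41.3% to 65.5%), against 17.3% and 24.9% of single sites and 18.3% and 25.9% of all sites. Of the 949 clustered sites of day 10, 19% were also on day 0 (16.5% to 21.6%) and 17.6% on day 3 (15.2% to 20.2%), against 8.83% and 9.04% of single sites and 9.68% and 9.9% of all sites. Sites in pairs lay between clustered and single sites in all 6 comparisons.

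**Figure D5:**
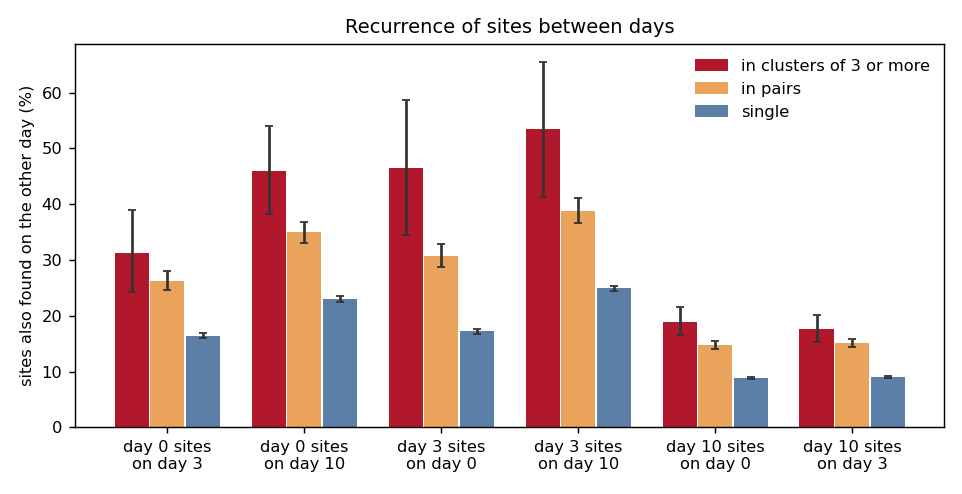
Share of clustered, paired and single sites of a day that overlap a site of another day by at least 1 nt on the same strand (vertical axis, percent), for the 6 ordered pairs of days, with exact 95% binomial intervals. In each group the clustered sites are highest and the single sites lowest, for example 53.5%, 38.9% and 24.9% for day 3 sites on day 10.

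Clustered sites were also compared with single sites of the same genes. Exons and introns were not told apart, so the match is by gene and not by RNA level at the site. With any other day counted, 53.1% of clustered sites (44.6% to 61.4%) and 26.8% of single sites (24.5% to 29.3%) recurred in the 46 genes of day 0 that held both kinds. In 18 genes of day 3 the shares were 67.3% (53.3% to 79.3%) and 27.1% (22.4% to 32.2%), and in 246 genes of day 10 they were 26.1% (23.3% to 29.1%) and 11.4% (10.9% to 12.0%). Gene by gene the picture was less uniform. The clustered share was the higher in 29 genes and the single share in 7 on day 0, in 11 and 6 on day 3, and in 107 and 104 on day 10, the rest being equal. On day 10 the means over genes were 27.1% for clustered and 19.8% for single sites. In ribosomal protein genes on day 10, 26 of 55 clustered sites recurred (47.3%, 33.7% to 61.2%) against 111 of 198 single sites (56.1%, 48.8% to 63.1%). The order was the other way on day 0, at 12 of 15 (80%, 51.9% to 95.7%) against 64.9%, and on day 3, at 7 of 12 (58.3%, 27.7% to 84.8%) against 55.7%, and the intervals overlapped on each day.

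Sites of the other days near a cluster were common, while clusters at the same place on a second day were few. Within 50 nt of the centre, 66.7% of day 0 clusters had a day 3 site and 70.4% a day 10 site, against 20.0% and 28.8% around single sites. All 23 day 3 clusters had a day 10 site within this distance and 19 had a day 0 site, against 31.2% and 20.9% of single sites. Of day 10 clusters, 42.2% had a day 0 site and 44.2% a day 3 site, against 11.2% and 11.5% of single sites. At least 3 day 10 sites were present around 9 of 54 day 0 clusters (16.7%), against 0.273% of day 0 single sites. At least 3 day 0 sites were present around 9 of 301 day 10 clusters (2.99%), against 0.0125% of day 10 single sites. Over the 3 days the clusters formed 365 separate loci, of which 352 held a cluster on 1 day, 13 on 2 days and none on all 3. With 54 and 23 clusters on day 0 and day 3, most of the 301 day 10 clusters could have no partner. Of the 365 loci, 126 had at least 1 site of each day within their span, and no like count was made for single sites.

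The 13 loci with clusters on 2 days comprised 9 of day 0 and day 10, 3 of day 3 and day 10 and 1 of day 0 and day 3. Rps3 had 3, 3 and 2 sites on day 0, day 3 and day 10 at chr7:99483641-99483655, 15 nt in all. Rpl32, of the large ribosomal subunit, had 3, 2 and 3 sites at chr6:115808702-115808747, and Tmsb10 the same numbers at chr6:72957558-72957590. Zfp280d, a zinc finger protein, also had 3, 2 and 3 sites, at chr9:72349521-72349551. Picalm, an adaptor of clathrin-coated pits, had 2, 3 and 3 sites at chr7:90139357-90139377, as did Hnrnph1. In these 6 loci the remaining day had 2 sites, 1 short of a cluster. Qk had 3, 1 and 3 sites at chr17:10275086-10275115, Ywhae, a 14-3-3 protein, 3, 1 and 3 at chr11:75764829-75764855 and Dleu2, the host RNA of a microRNA pair, 3, 1 and 3 at chr14:61642112-61642127. Kdm3b, a histone demethylase, and Arf5, a small GTPase, likewise had 3, 1 and 3 sites, and Rpl35 had 1, 3 and 3. The last was in the unnamed ID ENSMUSG00000030849.18, with 3, 0 and 3 sites.

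Most clusters lay in genes that also had sites on the other days. The same share was not computed for single sites, so these counts give no contrast with them. Of the 54 day 0 clusters, 52 lay in genes with a day 3 site and 48 in genes with a day 10 site. Genes with a cluster on that other day held 2 and 18 of the 54, where such genes were 0.457% and 4.11% of the genes with a site. Of the 301 day 10 clusters, 250 lay in genes with a day 0 site and 259 in genes with a day 3 site. Genes with a cluster on that day held 20 and 9, where such genes were 1.03% and 0.457% of the genes with a site. Both comparisons set clusters against genes and were not matched for the number of sites. On day 10, 1.82% of genes with 3 to 4 sites held a cluster, and 30.8% of genes with 50 or more. By gene, 34 of the 312 held clusters on day 0 alone, 16 on day 3 alone and 239 on day 10 alone, and 23 on more than 1 day. Those with clusters on each of the 3 days numbered 1, Hnrnph1. Genes with a cluster on day 10 and no site at all on day 0 or day 3 included Unc5c, Robo2, Slc8a1, Ptn and Igf2.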

How the data were processed

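SAM68 iCLIP2 libraries of 3 days were each represented by a deposited list of site positions. The authors assigned sites to genes and left out those in overlapping genes, per the file headers. The score of each deposited site is 0 and was not used. Per the submitters' processing notes, bedtools 2.31.1, UMI-tools 1.1.6, FastQC 0.12.1, STAR 2.7.11a, SAMtools 1.22.1 and MultiQC 1.31 are named, with builds GRCm38.p5 and GRCh38.p14 and no roles. For the site caller and the merging of libraries, the method is not given in the sources used here.

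Symbols were assigned by position from RefSeq (GRCm38.p6), where 1 gene of the same class and, where known, strand held at least 80% of an ID's sites. This named 7470 of 7949 IDs and 360 of 378 clusters. Coordinates count from 1. Recurrence required at least 1 nt shared on the same strand. Clusters, gene lists and members were chosen with earlier results of these data known. Genes named are, per day, the 10 with most clustered sites, the 5 with most clusters, the 5 largest clusters, genes with at least 20 sites and the highest or no clustered share, genes with clusters on 1 day alone, loci with clusters on several days and up to 4 members per list. Tpt1, individual pseudogenes and members of the group of ribosomal protein genes were chosen after their values were seen. Planted clusters and copied sites were tested on simulated data. Python 3.11.15, NumPy 2.4.6, pandas 2.3.3, SciPy 1.17.1 and matplotlib 3.10.9 were used.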

Additional observations from a re-analysis of the deposited data

How the results depend on the processing

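The counts follow from the rule. With gaps of at most 25 nt, the clustered share was 0.363% on day 0 and 0.860% on day 10, 34 genes held clusters on day 0, and clustered sites of day 10 recurred on any other day 15.8 percentage points more often than single sites, against 12.7 by the main rule. With gaps of at most 100 nt there were 135, 75 and 849 clusters on day 0, day 3 and day 10, in 125, 74 and 585 genes, with 1.39%, 0.810% and 3.62% of sites, 38 loci on 2 or more days, and recurrence differences of 15.6 points on day 0, against 26.4, and 8.95 on day 10. With at least 4 sites there were 1, 2 and 14 clusters in 1, 2 and 14 genes, with 0.0134%, 0.0283% and 0.118% of sites and 0 loci on 2 or more days. The recurrence difference was then -30.1 points on day 0, where Jam2 is the only cluster, and 7.28 on day 10, and the last 10% held 0% on day 0 and 19.5% on day 10. With at least 5 sites there were 0, 0 and 2 clusters in 0, 0 and 2 genes (Malat1 and Csnk1a1), with 0%, 0% and 0.0538% of sites, 0 loci on 2 or more days, a difference of -9.31 points and 0% in the last 10% of genes on day 10. Requiring the identical position gave a difference of 15.3 points on day 0, and centres within 10 nt gave 51.6 on day 3, against 35.4, and 22.3 on day 10. Averaged within genes, the differences were 17.9, 18.8 and 7.25 points on the 3 days. The difference was above 0 in 32 of 34 values under alternatives. In genes over 100 kb the last 10% held 8.33% of clustered sites on day 0 and 6.33% on day 10. Leaving out Malat1, ribosomal protein genes or uncertain clusters, alternatives chosen after seeing the data, moved none of the recomputed numbers of clusters, shares of all sites, recurrence differences and positions beyond its interval or by over 1.5 times. Outside these, the clustered share of long non-coding RNAs on day 10 was 3.84% with and 1.85% without Malat1. The share in genes under 10 kb, to which Malat1 belongs, was not recomputed. Beyond the fewer or more sites that each rule admits, the cause of these shifts was not tested. No paired analysis was possible because the lists hold no values for single libraries, so replicates could not be left out either. Motif shares around all sites were not run for want of a genome.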

Other observations

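Igf2, a fetal growth factor expressed from the paternal copy, had 24 sites on day 10 and 0 on the earlier days, and 6 of the 24 stood in 2 clusters at chr7:142652040-142652055 and chr7:142652368-142652390. Meg3, expressed from the maternal copy, had its 2 clusters of day 10 within a stretch of 309 nt, at chr12:109549501-109549522 and chr12:109549772-109549809. Picked after their values were seen, Igf2bp2 and Igf2bp3, which encode RNA-binding proteins of fetal tissue, had 88 and 70 sites on day 10 and 1 cluster each. The small nuclear RNA gene Gm25360 held 3 sites on day 10, all in 1 cluster of 19 nt. An unnamed protein-coding ID on chromosome Y, ENSMUSG00000096768.7, held 43, 40 and 51 sites from day 0 to day 10, with 0, 1 and 4 clusters.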
